A study of Homo sapiens with 6 samples.

Results

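The genes described here are 43 human genes, mostly for extracellular protein breakdown and its control. They comprise 25 protease inhibitors and related serpins, some of which work inside cells, 17 proteases and PLAUR, the receptor of urokinase. They were chosen by name as a functional group, with earlier results of these data known, and all 43 have a line among the 20263 genes of the table. The cells are HCT116, an established human colorectal cancer line, and poly(A) RNA-seq was done on 6 samples of it. The control group is labelled WT (3 samples of wild type HCT116) and the other group is labelled CSE treated (3 samples of the same line). CSE is not spelled out in the labels; because the series title is about smoking, it is taken to mean cigarette smoke extract. The sources used here give no dose, time of exposure or vehicle. The line is a monoculture, so stromal and immune cells, which make many of these proteins in a tumour, are not part of the model.

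Proteases outside the cell cut matrix, growth factors and receptors, and each family is held in check by its own inhibitors. Matrix metalloproteases (MMPs) and ADAMs are zinc enzymes, and the TIMPs bind the active site of MMPs and of some ADAMs. Serine proteases such as the plasminogen activators are trapped by serpins, which change shape once cut. The smaller WAP-domain and Kunitz-type inhibitors also block serine proteases, while cystatins block cysteine cathepsins. In carcinomas these systems are known for their part in invasion and in the release of growth factors.

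The values are TPM, a library's transcripts as shares corrected for transcript length, so the levels of different genes can be set side by side. Sequencing depth is unknown. The number of genes at 1 TPM or more ran from 12640 to 12778 per sample, and mitochondrially encoded genes held 27.0% to 30.2% of the TPM in WT and 25.5% to 25.8% in CSE. CSE replicate 3 stood apart from the other CSE samples on the second principal component (score -9.31, against 4.35 and 5.70). Epithelial identity was checked with 6 markers (EPCAM, KRT8, KRT18, KRT19, CDH1 and CLDN4), whose summed level was 5324 to 5578 TPM in WT and 5575 to 5873 TPM in CSE. Within that sum KRT18 was lower (log2 fold change -0.25) and KRT19 higher (0.34) in CSE. Of 6 fibroblast markers 5 were under 1 TPM in every sample, with DCN listed at 0 throughout, and COL1A1 carried the sum of 43.9 to 46.0 TPM in WT and 38.0 to 38.7 TPM in CSE. Of 6 leukocyte markers 4 were under 1 TPM in every sample, PTPRC at 0.03 TPM or less, and CD68, a lysosomal protein gene, carried the sum of 19.1 to 19.5 TPM in WT and 12.6 to 13.6 TPM in CSE. All 5 endothelial markers were under 1 TPM, with sums of 0.88 to 1.43 TPM in WT and 1.42 to 1.64 TPM in CSE.

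More of the tested inhibitors were called lower than higher with CSE, and the tested proteases were called lower or did not pass. A gene was tested when it reached 1 TPM in at least 3 samples, and 33 of the 43 genes did (21 inhibitors, 11 proteases and PLAUR). Of these 33, limma called 22 at an adjusted p under 0.05, 6 higher and 16 lower, where 50.1% of all 12793 genes tested were called, 24.5% higher and 25.6% lower. The inhibitor class, here and in the sums below, also holds SERPINH1, SERPINF1 and SERPINB5, serpins that do not inhibit proteases. By class, 5 inhibitors rose (SERPINH1 among them), 12 fell (SERPINF1 and SERPINB5 among them) and 4 did not pass. Leaving out 1 sample at a time, 10 to 13 inhibitors were called lower. Of the proteases 0 rose, 4 fell and 7 did not pass. One of the 4 proteases, MMP1, reached 1 TPM only in WT samples, so the filter favoured its call; without it 3 proteases and 15 genes in all fell. At an unadjusted p under 0.05 the number of proteases that rose was also 0. PLAUR rose. The median log2 fold change of log2(TPM + 1), CSE minus WT, was -0.22 over the tested inhibitors, -0.05 over the tested proteases and -0.0039 over all genes tested. Changes of at least 1.5-fold in mean TPM were called for 0 of the genes upward and for 5 downward (SLPI, TIMP3, SERPINA1, CPA4 and MMP1), or 4 without MMP1, against 2.01% upward and 3.21% downward, 5.22% together, of all genes tested. The split by direction depends on the scaling: with mitochondrially encoded genes left out and the rest rescaled, 6 of the genes were higher and 22 lower, and the share of higher calls over all genes went from 48.9% to 34.1%.

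**Figure D1:**
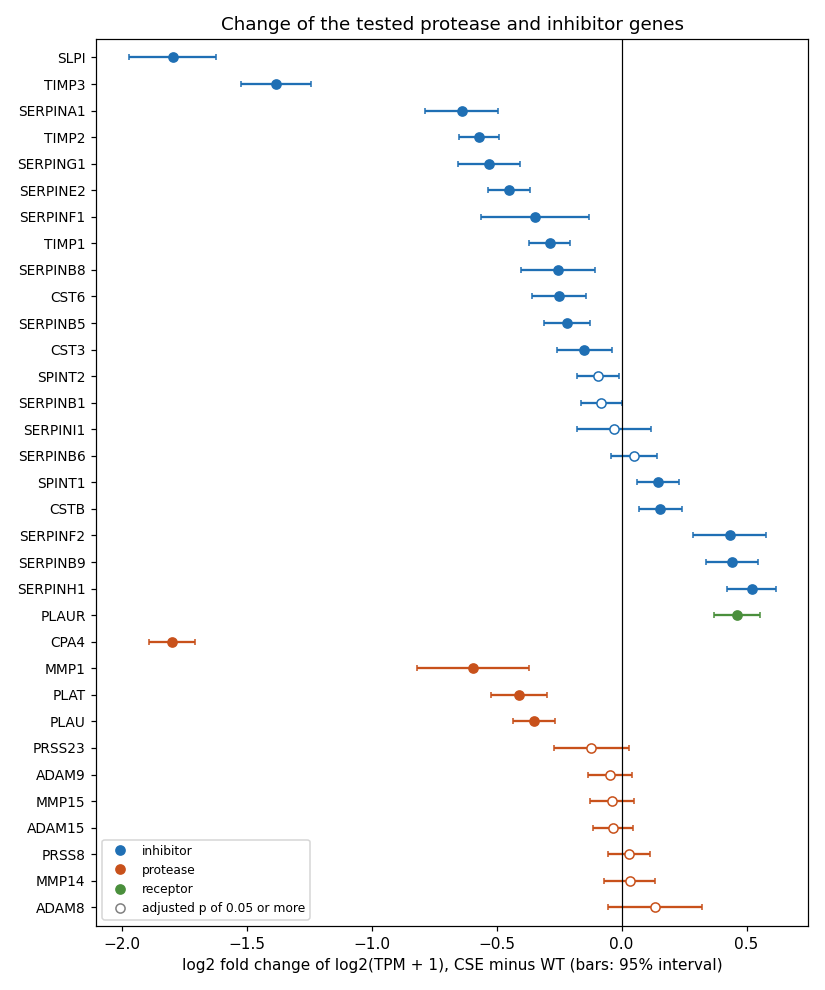
Change of each of the 33 tested genes: the horizontal axis is the log2 fold change (of log2(TPM + 1), CSE minus WT), points are limma estimates, bars are 95% intervals, colours give the class and open points did not pass. SLPI (-1.80), CPA4 (-1.80) and TIMP3 (-1.38) lie far to the left of the rest, and the rises end at SERPINH1 (0.52).

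All 3 TIMP genes fell. TIMP3 encodes the inhibitor that stays bound to the matrix (ENSG00000100234, chromosome 22, 32801701 to 32863043, plus strand). Its level was 16.0, 15.6 and 15.1 TPM in WT replicates 1 to 3 and 4.98, 5.94 and 5.19 TPM in the CSE samples. No CSE sample came near a WT sample, and the mean fell 2.90-fold (log2 fold change -1.38, standard error 0.068, adjusted p = 5.46e-13 by limma). TIMP2, which also serves as the adaptor through which MMP14 activates MMP2, was at 170, 168 and 163 TPM in WT and at 112, 114 and 110 TPM in CSE. That is a fall of 1.49-fold with clear separation of the groups (log2 fold change -0.57, standard error 0.039, adjusted p = 1.03e-10 by limma). TIMP1, a broad soluble MMP inhibitor and the most abundant of the 43 transcripts in WT by mean level, was at 351, 338 and 322 TPM in WT and at 281, 267 and 278 TPM in CSE. Its groups did not overlap either, and the fall was 1.22-fold (log2 fold change -0.29, standard error 0.040, adjusted p = 3.57e-06 by limma). The gene with the lowest level of the 3 thus showed the largest fold and the most abundant the smallest. In a bulk sample, fewer cells that express a gene and less RNA per cell cannot be told apart.

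Of the WAP-domain inhibitors, which block elastase-like serine proteases, only SLPI was well expressed, and it fell. SLPI (secretory leukocyte peptidase inhibitor, chromosome 20, 45252239 to 45254564, on the minus strand) measured 31.4, 36.3 and 33.6 TPM in WT and 7.84, 8.28 and 11.2 TPM in CSE. CSE replicate 3 was the highest of the treated samples and still lay far below WT. The mean fell 3.71-fold (log2 fold change -1.80, standard error 0.085, adjusted p = 2.86e-13 by limma), the 4th largest absolute change of all genes tested. PI3, which encodes elafin, was at 0.77, 0.42 and 0.54 TPM in WT and at 0.13, 0.27 and 0 TPM in CSE. WFDC2, known as the marker HE4, was at 0.61, 0.60 and 0.49 TPM in WT and at 0.32, 0.29 and 0.15 TPM in CSE. Both were under 1 TPM in every sample and were not tested, although neither had overlapping groups.

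Among the extracellular serpins, 4 of 6 tested genes fell, 1 rose and 1 did not pass, where 25.6% of all genes tested fell and 24.5% rose. SERPINA1 encodes alpha-1-antitrypsin, the inhibitor of neutrophil elastase (chromosome 14, 94376747 to 94390693, minus strand). It was at 11.26, 10.85 and 10.02 TPM in WT and at 5.90, 6.89 and 6.76 TPM in CSE, a fall of 1.64-fold without overlap (log2 fold change -0.64, standard error 0.071, adjusted p = 1.69e-07 by limma). SERPING1, the C1 inhibitor of the complement and contact systems (chromosome 11, 57597387 to 57614853), was at 12.6, 12.2 and 12.1 TPM in WT and at 8.08, 8.15 and 8.42 TPM in CSE. The groups stood well apart (log2 fold change -0.53, standard error 0.060, adjusted p = 2.78e-07 by limma). SERPINE2, protease nexin-1, which traps thrombin and the plasminogen activators (chromosome 2, 223975112 to 224039319, minus strand), was the most abundant of this group at 137, 137 and 131 TPM in WT. In CSE it stood at 97.2, 102 and 96.2 TPM, 1.37-fold lower and without overlap (log2 fold change -0.45, standard error 0.040, adjusted p = 7.44e-09 by limma).

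The other extracellular serpins were expressed at lower levels. SERPINF1, which encodes the non-inhibitory serpin PEDF, was at 2.51, 1.94 and 2.43 TPM in WT and at 1.38, 1.46 and 1.94 TPM in CSE. The highest CSE value equalled the lowest WT value (log2 fold change -0.35, standard error 0.10, adjusted p = 0.00843 by limma), and the call was lost without WT replicate 1 (limma adjusted p = 0.0572) and under quantile normalization (0.0505). SERPINF2, alpha-2-antiplasmin, the inhibitor of plasmin, went the other way, from 6.98, 7.22 and 6.48 TPM in WT to 8.74, 10.1 and 10.1 TPM in CSE. All CSE values were above all WT values, a clear rise from a low level (log2 fold change 0.43, standard error 0.071, adjusted p = 3.19e-05 by limma). SERPINI1, neuroserpin, an inhibitor of tissue plasminogen activator, was at 11.5, 13.7 and 10.9 TPM in WT and at 10.9, 12.1 and 12.2 TPM in CSE. Its 95% interval ran from -0.18 to 0.12 on the log2 scale (limma adjusted p = 0.746), and the groups overlapped. SERPINA3, alpha-1-antichymotrypsin, stayed at 0.08 TPM or less and was not tested.

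SERPINH1 does not inhibit proteases: it encodes HSP47, the collagen chaperone of the endoplasmic reticulum (chromosome 11, 75562056 to 75572783). It had the largest log2 rise among the tested genes of the 43, from 38.1, 34.5 and 36.3 TPM in WT to 52.1, 53.5 and 51.9 TPM in CSE. The groups were far apart, with a rise of 1.45-fold (log2 fold change 0.52, standard error 0.047, adjusted p = 9.1e-09 by limma). Over the same samples COL1A1, the collagen gene used above as a fibroblast marker, was lower (log2 fold change -0.23).

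Clade B serpins mostly work inside cells, and of the 5 tested 1 rose, 2 fell and 2 did not pass. The share called was 60%, against 50.1% of all genes tested. SERPINB9, the inhibitor of granzyme B that shields cells from cytotoxic granules (chromosome 6, 2887266 to 2903280, minus strand), measured 37.8, 37.3 and 40.1 TPM in WT and 54.8, 53.8 and 48.9 TPM in CSE. CSE replicate 3 was the lowest of the treated samples and still above every WT sample, and the mean rise was 1.37-fold (log2 fold change 0.44, standard error 0.050, adjusted p = 2.69e-07 by limma). SERPINB5, which encodes maspin, a non-inhibitory serpin of epithelia, was at 43.6, 43.8 and 42.4 TPM in WT and at 36.96, 36.97 and 37.10 TPM in CSE. The treated samples were almost identical to each other, 1.17-fold below WT (log2 fold change -0.22, standard error 0.044, adjusted p = 0.000315 by limma). SERPINB8, an inhibitor of furin-like proteases, fell from a mean of 7.46 to 6.09 TPM (log2 fold change -0.26, standard error 0.072, adjusted p = 0.00534 by limma). It overlaps HMSD on the same strand, which rose from a mean of 3.06 to 4.34 TPM, so its reads may be shared with that gene.

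SERPINB1, the inhibitor of neutrophil serine proteases, was the most abundant serpin in both groups, at 154, 158 and 151 TPM in WT and at 150, 141 and 146 TPM in CSE. Every CSE value lay just under the lowest WT value, yet the gene did not pass (log2 fold change -0.08, 95% interval -0.16 to 0.00072, limma adjusted p = 0.092). It passed as lower under quantile normalization (limma adjusted p = 0.00392) and with mitochondrially encoded genes left out (0.0035). SERPINB6, an inhibitor of cathepsin G and trypsin-like enzymes, had overlapping groups at means of 46.0 and 47.6 TPM (95% interval -0.04 to 0.14 on the log2 scale). SERPINB2, plasminogen activator inhibitor 2, did not exceed 0.24 TPM in any sample and was not tested.

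Cystatins and the Kunitz-type inhibitors changed little. CST6, cystatin E/M, was at 101, 93.5 and 100 TPM in WT and at 83.1, 74.9 and 89.9 TPM in CSE, lower without overlap (log2 fold change -0.25, standard error 0.053, adjusted p = 0.000474 by limma). CST3, cystatin C, the main secreted cystatin, went from a mean of 50.5 to 45.4 TPM (log2 fold change -0.15, limma adjusted p = 0.022). That call rested on single samples and settings: the adjusted p was 0.156 without WT replicate 1, 0.129 without CSE replicate 2, 0.0813 without the filter and 0.0739 without the variance trend (all limma). CSTB, the intracellular cystatin B, rose from 75.5, 70.5 and 71.4 TPM in WT to 81.0, 81.2 and 80.0 TPM in CSE (log2 fold change 0.15, standard error 0.042, adjusted p = 0.00401 by limma). Of the 3 cystatins 2 were thus called lower and 1 higher, where 25.6% of all genes tested fell and 24.5% rose.

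SPINT1 and SPINT2 encode HAI-1 and HAI-2, membrane-anchored inhibitors of the epithelial serine proteases matriptase and prostasin. SPINT1 was at 143, 134 and 140 TPM in WT and at 158, 156 and 148 TPM in CSE. It rose by 1.11-fold (log2 fold change 0.15, standard error 0.041, adjusted p = 0.00476 by limma), a call lost with mitochondrially encoded genes left out (0.09, limma adjusted p = 0.0511). SPINT2 was at 339, 319 and 313 TPM in WT and at 295, 300 and 314 TPM in CSE, where CSE replicate 3 lay inside the WT range. It did not pass (log2 fold change -0.09, limma adjusted p = 0.0533), but passed as lower without CSE replicate 3 (-0.12, limma adjusted p = 0.0176), without WT replicate 3 (-0.12, 0.0333) and under 4 other settings. PRSS8, the gene of prostasin itself, did not pass (means of 95.4 and 97.4 TPM, 95% interval -0.06 to 0.11 on the log2 scale). ST14, the matriptase gene, named here after its values were seen, did not pass either, at means of 170 and 170 TPM (limma adjusted p = 0.924).

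**Figure D2:**
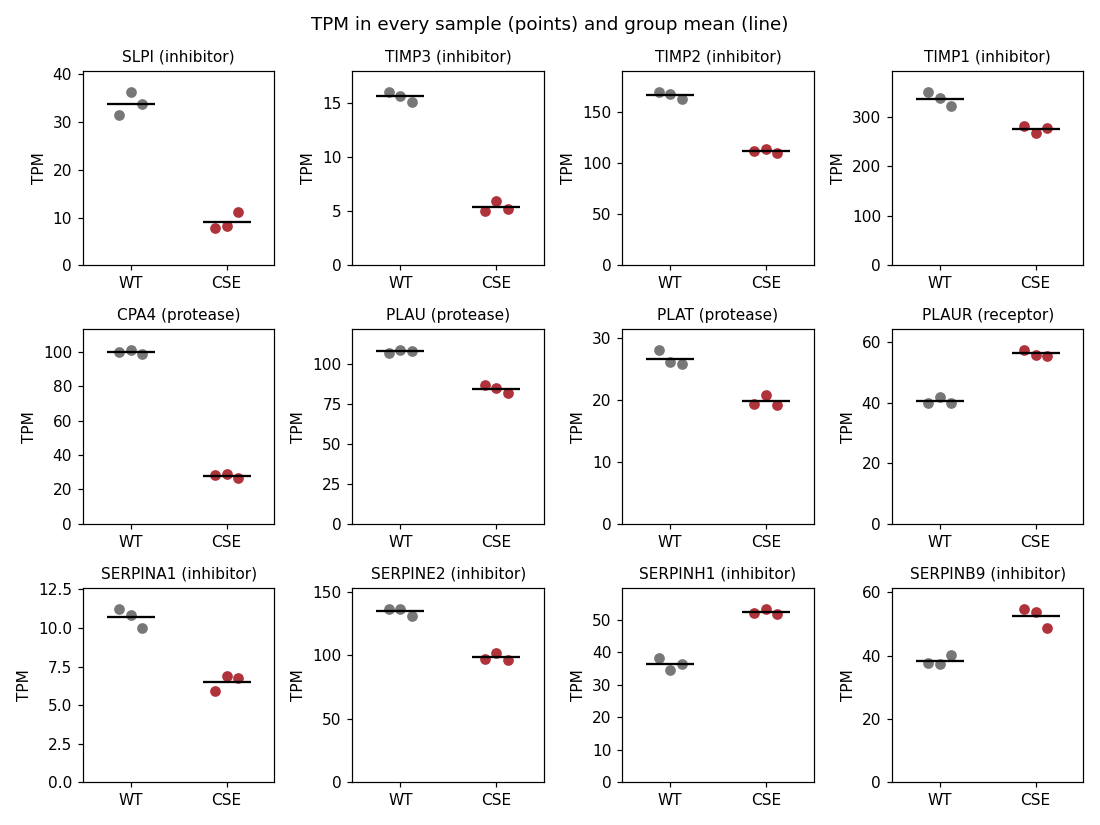
TPM in each sample for 12 of the genes, one panel per gene with the vertical axis starting at 0: grey points are WT samples, red points CSE samples and lines group means. In each of the 12 panels the 3 CSE points lie wholly above (PLAUR, SERPINH1, SERPINB9) or wholly below the WT points. All 12 are among the called genes, and 57.4% of all genes tested had groups that did not overlap.

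Of the proteases, CPA4 changed most. CPA4 is a secreted zinc carboxypeptidase that removes hydrophobic residues from the ends of peptides (chromosome 7, 130293134 to 130324180, plus strand). It was at 99.6, 101 and 98.4 TPM in WT and at 28.2, 28.8 and 26.7 TPM in CSE. Both groups were tight and lay far apart, with a fall of 3.57-fold (log2 fold change -1.80, standard error 0.044, adjusted p = 3.35e-18 by limma), the 3rd largest absolute change of all genes tested. Its inhibitor-side counterpart in size was SLPI, and with TIMP3 these were the 3 genes of the 43 among the 20 largest absolute changes.

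The plasminogen activation system split between enzymes and receptor. Urokinase and tissue plasminogen activator convert plasminogen to plasmin, and urokinase acts at the cell surface when bound to its receptor. PLAU, the urokinase gene (chromosome 10, 73909177 to 73917497, plus strand), was at 107, 109 and 108 TPM in WT and at 86.5, 84.7 and 81.8 TPM in CSE. It fell 1.28-fold without overlap (log2 fold change -0.35, standard error 0.040, adjusted p = 2.86e-07 by limma). PLAT, the tissue plasminogen activator gene (chromosome 8, 42175233 to 42207724, minus strand), measured 28.1, 26.2 and 25.9 TPM in WT and 19.4, 20.9 and 19.2 TPM in CSE. It fell 1.35-fold, again without overlap (log2 fold change -0.41, standard error 0.054, adjusted p = 1.8e-06 by limma). PLAUR, the urokinase receptor gene (chromosome 19, 43646095 to 43670547, minus strand), rose instead, from 39.9, 41.8 and 39.8 TPM in WT to 57.3, 55.8 and 55.5 TPM in CSE. All treated samples exceeded all control samples, and the rise was 1.39-fold (log2 fold change 0.46, standard error 0.044, adjusted p = 2.12e-08 by limma). Of the serpins that act on this system, SERPINE2 fell and SERPINF2 rose, as given above.

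Of the 7 MMP genes among the 43, only the membrane-type MMP14 and MMP15 were above 2 TPM, and neither passed. MMP14 (MT1-MMP, the membrane collagenase that activates MMP2) was at 27.3, 25.8 and 26.0 TPM in WT and at 26.7, 27.4 and 26.9 TPM in CSE, with overlapping groups and a 95% interval of -0.07 to 0.13 on the log2 scale (limma adjusted p = 0.608). MMP15 (MT2-MMP) was at 63.6, 62.0 and 61.4 TPM in WT and at 61.5, 61.4 and 58.9 TPM in CSE (95% interval -0.13 to 0.05, limma adjusted p = 0.452). Beside them all 3 TIMP genes fell, as given above; the difference between enzymes and inhibitors was not tested.

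The 5 secreted MMPs among the 43 did not exceed 1.27 TPM in any sample. MMP1, interstitial collagenase, was at 1.27, 1.15 and 1.16 TPM in WT and at 0.45, 0.37 and 0.54 TPM in CSE (log2 fold change -0.59, standard error 0.11, adjusted p = 9.72e-05 by limma, or -1.24 with a pseudocount of 0.1). It passed the filter on low values only through its WT samples, so the filter itself favoured a lower call, and nothing is read from it about a direction. MMP7, matrilysin, an MMP made by epithelial tumour cells, was at 0.40, 0.50 and 0.75 TPM in WT and at 0.98, 1.04 and 0.96 TPM in CSE. It was the one untested gene whose CSE samples lay above all WT samples, and without the filter it passed as higher (log2 fold change 0.37, limma adjusted p = 0.00893). The gelatinase gene MMP9 (0.89 to 1.19 TPM in WT, 0.77 to 0.96 TPM in CSE) and the collagenase gene MMP13 (0.32 to 0.77 TPM in WT, 0.31 to 0.40 TPM in CSE) had overlapping groups. MMP2, gelatinase A, was lower without overlap but at 0.31 to 0.34 TPM in WT and 0.08 to 0.16 TPM in CSE.

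**Figure D3:**
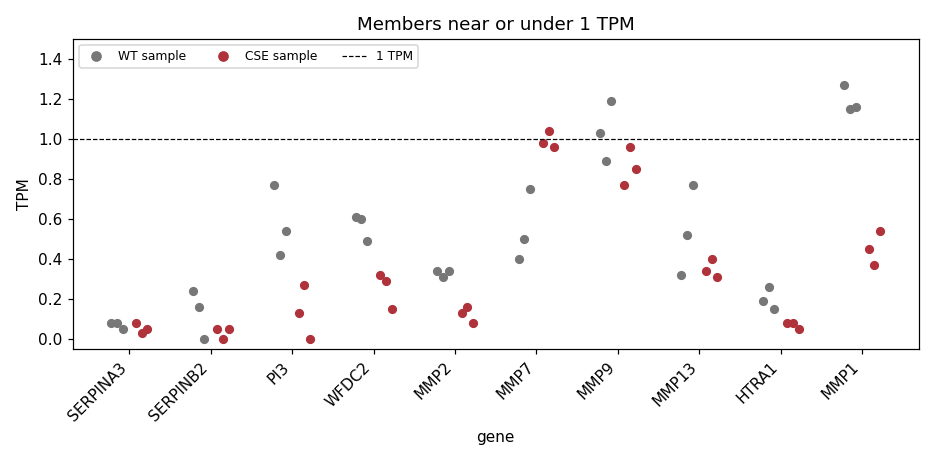
TPM of the untested genes other than ADAMTS1, with MMP1 beside them, in each WT sample (grey) and CSE sample (red); the dashed line marks 1 TPM. The MMP7 points lie higher in CSE, up to 1.04 TPM, and the MMP1 points fall from above the line to 0.37 to 0.54 TPM.

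In all, 10 of the 43 genes were not tested, namely SERPINA3, SERPINB2, PI3, WFDC2, MMP2, MMP7, MMP9, MMP13, HTRA1 and ADAMTS1. HTRA1, a secreted serine protease gene, was at 0.15 to 0.26 TPM in WT and at 0.05 to 0.08 TPM in CSE, and ADAMTS1, a matrix protease gene, was listed at 0 in all 6 samples. Of these 10 genes, 5 had groups that did not overlap, 4 lower (PI3, WFDC2, MMP2 and HTRA1) and 1 higher (MMP7), where 57.4% of the tested genes did not overlap. At such levels the reads behind a value are few and their number is unknown.

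The remaining proteases did not pass. ADAM9 and ADAM15, membrane sheddases, were at means of 125 and 133 TPM in WT and of 121 and 130 TPM in CSE. Their 95% intervals were -0.13 to 0.04 and -0.11 to 0.05 on the log2 scale. ADAM8, a sheddase best known from leukocytes, went from a mean of 2.78 to 3.16 TPM with a wide interval (-0.06 to 0.32). PRSS23, a secreted serine protease gene, was at 5.21, 5.10 and 5.11 TPM in WT and at 4.58, 4.71 and 4.65 TPM in CSE, separated between the groups without passing (log2 fold change -0.12, limma adjusted p = 0.169). PRSS23 overlaps FZD4 on the opposite strand, at means of 11.8 and 8.24 TPM, and no source used here says whether the counting used strand. With mitochondrially encoded genes left out, ADAM9, ADAM15, MMP15 and PRSS23 passed as lower, with log2 fold changes of -0.10, -0.09, -0.10 and -0.18.

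Set against each other as summed levels, both classes were lower with CSE. The 25 inhibitor genes together held 1793, 1733 and 1704 TPM in WT and 1551, 1531 and 1557 TPM in CSE. That class includes the non-inhibitory SERPINH1, SERPINF1 and SERPINB5. The 17 protease genes held 699, 685 and 679 TPM in WT and 582, 585 and 567 TPM in CSE. The ratio of the inhibitor sum to the protease sum was 2.57, 2.53 and 2.51 in WT and 2.66, 2.62 and 2.74 in CSE, so it was higher in every treated sample. CPA4 alone decides that direction: it accounted for 71.7 of the 109 TPM by which the mean protease sum was lower. Without it the ratio was 2.99, 2.97 and 2.94 in WT and 2.80, 2.75 and 2.88 in CSE, lower in every treated sample. These sums weight genes by abundance and were not tested. The classes are not matched enzyme to inhibitor, so their ratio does not measure inhibition. The cathepsins that cystatins block are not among the 17 proteases, and the clade B serpins mostly work inside cells.

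**Figure D4:**
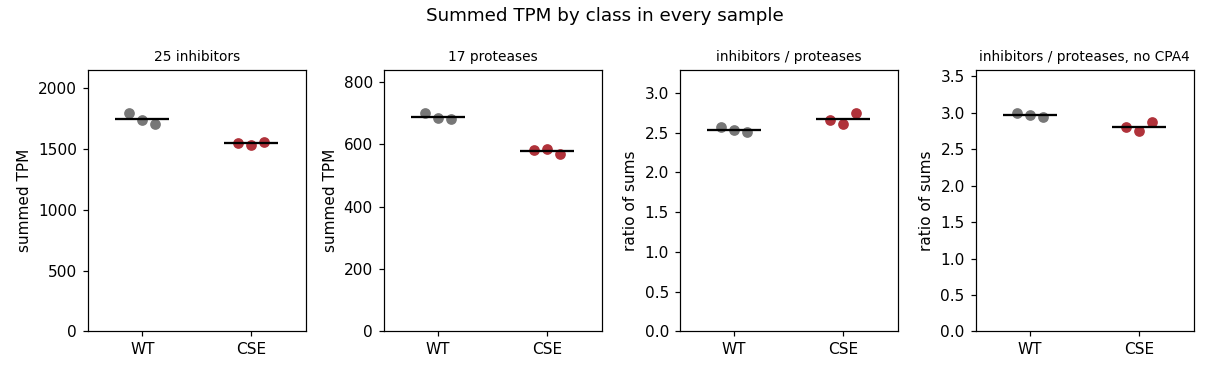
Summed TPM of the 25 inhibitor and 17 protease genes in each sample, and the ratio of the sums with and without CPA4; points are samples, lines group means, and the vertical axes start at 0. The ratio is higher in CSE with CPA4 (2.62 to 2.74 against 2.51 to 2.57) and lower without it (2.75 to 2.88 against 2.94 to 2.99).

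Several of the genes are neighbours in families on one chromosome, a feature the choice of genes did not use, and neighbours did not always move together. On chromosome 6, SERPINB9 lies between SERPINB1 and SERPINB6, 45.3 kb from the one and 44.9 kb from the other. SERPINB9 rose (log2 fold change 0.44), while SERPINB1 was at -0.08 and SERPINB6 at 0.05; the differences between the neighbours were not tested. On chromosome 17, SERPINF2 (0.43) and SERPINF1 (-0.35) lie 6.69 kb apart on the same strand and passed in opposite directions. On chromosome 18, SERPINB5 (-0.22) and SERPINB8 (-0.26) both fell, with SERPINB2 between them under 0.25 TPM. On chromosome 20, all of PI3, SLPI and WFDC2 had CSE values below WT values, with SLPI the one above 1 TPM. Over all genes tested, 57.4% had groups that did not overlap. Further WFDC genes of chromosome 20 had overlapping groups, namely WFDC3 (means of 2.36 TPM in WT and 1.95 TPM in CSE) and WFDC5 (0.94 and 0.50 TPM). The MMP genes of chromosome 11 (MMP7, MMP1 and MMP13) were too low for such a comparison.

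Promoters were searched because several of these genes are textbook targets of AP-1, the dimer of JUN and FOS family proteins, and because the series title names STAT3. JUN fell from a mean of 125 to 46.7 TPM (log2 fold change -1.40), while FOSL1, its partner gene, was at means of 125 and 124 TPM (-0.01, limma adjusted p = 0.869) and STAT3 at means of 112 and 108 TPM (-0.05). RefSeq promoters (GRCh38.p14) were found for 26 of the 43 genes, 35 starts in all; those of ADAM9, ADAMTS1, CST6, CSTB, MMP1, MMP13, MMP2, MMP9, PI3, PLAT, PRSS8, SERPINF1, SERPINF2, SERPING1, SLPI, SPINT2 and TIMP2 were not matched. The 250 bases before each start were searched on both strands. The AP-1 motif TGANTCA was in 6 of the 35 windows (17.1%), against 6.57% of all 35116 promoters in the table and 4.57% of those of the genes tested. The 35 windows include 5 of untested genes, and 2 of the 6 windows with a match are among these. The 6 genes were CPA4, SERPINB5 and SERPINB8, which fell, PLAUR, which rose, and MMP7 and SERPINB2, which were not tested. The N of the motif accepts any base. The matches of SERPINB5 and SERPINB2, and that 185 bases before the start of SERPINB8, read TGAATCA. The others read TGAGTCA or TGACTCA. The STAT motif TTCNNNGAA was in 2 windows (SERPINB1 and SERPINB8), or 5.71% against 6.57% of all promoters and 5.22% of those of the genes tested. The core of the aryl hydrocarbon receptor motif, GCGTG, was in 17 windows, or 48.6% against 32.2% of all promoters and 43.3% of those of the genes tested. Counted by gene, the core was in 13 of 26 (50.0%), against 36.2% of all genes with a promoter and 53.4% of those tested. The window share thus lay above that of the genes tested and the gene share below it. A match of letters is a description and not a binding site.

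The windows of CPA4 and SERPINB8 are shown because each holds 2 AP-1 matches and the gene fell, that of PLAUR because it holds 1 match and the gene rose, and that of TIMP3 because it holds no match although the gene fell most of the TIMPs. Capitals mark TGANTCA, and each window runs 5′ to 3′ on the gene's strand, ending at the base before the RefSeq start. In CPA4 the matches begin 48 and 15 bases before the start, in SERPINB8 185 and 28 bases before it, and in PLAUR 186 bases before it.
CPA4, chr7:130292911-130293160, plus strand: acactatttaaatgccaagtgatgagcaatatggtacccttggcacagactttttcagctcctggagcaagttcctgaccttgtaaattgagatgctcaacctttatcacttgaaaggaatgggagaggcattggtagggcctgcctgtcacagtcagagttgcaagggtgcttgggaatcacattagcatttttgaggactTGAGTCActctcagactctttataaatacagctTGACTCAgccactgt
SERPINB8, chr18:63969831-63970080, plus strand: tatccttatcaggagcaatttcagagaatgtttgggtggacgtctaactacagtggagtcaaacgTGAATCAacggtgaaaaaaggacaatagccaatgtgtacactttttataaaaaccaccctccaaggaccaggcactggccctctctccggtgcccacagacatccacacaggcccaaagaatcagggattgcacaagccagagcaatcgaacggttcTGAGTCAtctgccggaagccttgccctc
PLAUR, chr19:43670170-43670419, minus strand: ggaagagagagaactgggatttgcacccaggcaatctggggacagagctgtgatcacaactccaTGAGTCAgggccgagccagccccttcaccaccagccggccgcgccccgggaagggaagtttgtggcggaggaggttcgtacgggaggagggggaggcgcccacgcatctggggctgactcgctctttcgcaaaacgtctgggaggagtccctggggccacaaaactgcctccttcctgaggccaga
TIMP3, chr22:32801455-32801704, plus strand: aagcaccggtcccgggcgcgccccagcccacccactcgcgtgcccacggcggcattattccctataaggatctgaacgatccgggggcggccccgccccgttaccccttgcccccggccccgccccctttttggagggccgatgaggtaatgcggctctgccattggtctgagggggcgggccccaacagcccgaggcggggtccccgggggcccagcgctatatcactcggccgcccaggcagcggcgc

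Other proteases and inhibitors of the same kinds were taken from a list of 167 further genes, of which 69 were tested. Among these 9 rose, 27 fell and 33 did not pass, with a median log2 fold change of -0.08. The share called was 52.2%, near the 50.1% of all genes tested. Of the genes that fell, 1 (KLK11) reached 1 TPM only in WT samples. Among the genes with a mean of at least 5 TPM in the higher group and with groups that did not overlap, the largest fall was that of KLK5, a kallikrein that activates other kallikreins, at 74.8, 71.3 and 69.0 TPM in WT and at 26.8, 25.5 and 26.9 TPM in CSE (log2 fold change -1.41, standard error 0.047, adjusted p = 6.02e-16 by limma). It was followed by SERPINA5, the protein C inhibitor (-0.66), F3, tissue factor, the receptor that starts coagulation (-0.49), CSTA, cystatin A (-0.49), the membrane carboxypeptidase gene CPM (-0.40) and the kallikrein gene KLK10 (-0.37). Under the same limits the largest rise was that of TFPI, the Kunitz-type inhibitor of the tissue factor pathway, at 4.52, 4.34 and 4.39 TPM in WT and at 7.44, 8.20 and 7.46 TPM in CSE (log2 fold change 0.68, standard error 0.071, adjusted p = 7.35e-08 by limma). F3 and its inhibitor TFPI thus passed in opposite directions. Next in size were the rises of the sheddase gene ADAM19 (0.52), the serine protease gene PRSS22 (0.50), MMP19 (0.32) and the lysosomal cathepsin genes CTSK (0.29) and CTSZ (0.23).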

How the data were processed

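Poly(A) RNA-seq of 6 HCT116 samples, 3 WT and 3 CSE, was analysed. The authors deposited TPM values of 20263 genes, rounded to 2 decimals; depth is unknown. Per the submitters' processing notes, the tools included HISAT2 2.0, Trimmomatic 0.36, FastQC 0.11.2 and bedtools 2.26.0, and the build was GRCh38; counter, annotation and strand setting are not stated there. TPM values are shares, so abundant transcripts that change shift all others.

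Genes that reached 1 TPM in 3 or more libraries were fitted as log2(TPM + 1) with limma 3.58.1 in R 4.3.3 (empirical Bayes with trend), Benjamini-Hochberg adjustment over all genes tested and a threshold of 0.05. Folds are ratios of mean TPM, which log2 fold changes understate at low levels. Whether replicates were separate cultures is not stated in the labels, so the p-values may reflect technical spread only. The procedure was tested on simulated data.

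Symbols matched 20148 genes; gene positions are GENCODE 29 (GRCh38). The genes, lists and motifs were chosen with earlier results of these data known. Described with sample values were called genes with an absolute log2 fold change of at least 0.3 and most of the rest; of the 167 further genes, the 6 largest rises and 6 largest falls among those called, non-overlapping and at a mean of at least 5 TPM in the higher group. Tried as alternatives were 2 other filters (none, or mean TPM of 5 and above), a pseudocount of 0.1, 3 rescalings, 2 variance priors, the replicate block and leaving out each sample.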

Additional observations from a re-analysis of the deposited data

How the results depend on the processing

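Of the 22 genes called, 19 kept their call and direction in each of the 15 alternatives in which they were tested; CST3, SERPINF1 and SPINT1 lost theirs in at least 1. MMP1 was not tested in 4 of them. Of the 11 tested genes that did not pass, 6 passed in at least 1. The count of proteases that rose was 1 (MMP7) without the filter and 1 with mitochondrially encoded genes left out, where 8 proteases fell. Genes that did not pass changed sign under that rescaling (SERPINB6 -0.0085, MMP14 -0.024, PRSS8 -0.028) and under quantile normalization (SERPINI1 0.0047, PRSS8 -0.0041); the cause was not tested. Leaving out 1 sample at a time gave 6 higher in every case and 13 to 17 lower, and SERPINI1 ran from -0.091 to 0.056. Same-numbered samples did not deviate together (correlations -0.07, 0.02 and -0.09), and with the replicate block 6 genes were higher and 16 lower, as without it. The unknown depth limits what can be said of genes near or under 1 TPM.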

Other observations

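Gene families among the 167 further genes were grouped by symbol after the values were seen, and differences between families were not tested. Over all genes tested 24.5% rose and 25.6% fell. Of 10 tested kallikrein genes, secreted serine proteases of one cluster, 6 fell and 0 rose: KLK5 and KLK10, given above, KLK6 (log2 fold change -0.19), KLK11 (-1.12), KLK14 (-0.57) and KLK1 (-0.33). KLK11 was at 2.43, 2.67 and 2.79 TPM in WT and at 0.69, 0.85 and 0.49 TPM in CSE, so it passed the filter on low values only through WT, and without it 5 of 9 kallikrein genes fell. KLK6, the most abundant of them, was at 217, 214 and 207 TPM in WT and at 183, 188 and 186 TPM in CSE, whereas KLK7, a chymotrypsin-like kallikrein, did not pass (means of 81.4 and 82.7 TPM, 95% interval -0.06 to 0.11). Of 9 tested cathepsin genes, lysosomal proteases, 3 rose and 2 fell: CTSB, the most abundant, fell from a mean of 258 to 210 TPM (-0.30), and CTSH rose from 28.99 to 33.6 TPM (0.21). Of 9 tested ADAMTS genes 4 fell and 0 rose. Of 18 ADAMTS genes listed, 9 were not tested. ADAM17, the main sheddase of EGF receptor ligands, was at 40.9, 42.3 and 40.7 TPM in WT and at 37.3, 39.4 and 33.9 TPM in CSE (-0.16, limma adjusted p = 0.0124), and ADAM10, a related sheddase, did not pass (0.07, limma adjusted p = 0.231). Of 5 further MMP genes tested, 3 fell, 1 rose and 1 did not pass. The membrane-anchored MMP17 (means of 26.9 and 22.8 TPM, log2 fold change -0.23) and MMP25 (6.63 and 5.02 TPM, -0.34) fell. The secreted MMP28 fell too (2.01 and 1.23 TPM, -0.44, limma adjusted p = 0.000621). MMP19 rose, as given above, and the secreted MMP11 (14.0 and 15.4 TPM) did not pass (0.14, limma adjusted p = 0.112).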
